A study of Mus musculus with 15 samples.

Results

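The 50 genes described here drive or restrain the cell division cycle. They were chosen by name and looked up in the deposited table, which holds 15059 gene symbols. Cumulus cells are the somatic layer closest to the oocyte in the follicle, and those studied here are from the mouse. By role, 19 act in DNA replication, 22 in mitosis and 5 are D cyclins or the kinases they bind, while 4 inhibit cyclin-dependent kinases (CDKs). A probe of the deposited table carried the symbol of 45 members, and 43 of these had a valid probe, one detected well above background by at least 4 of 5 arrays in every stage. A gene with several valid probes was represented by the brightest one. The 43 are the members that could be tested, and they are not a random sample of the 50, since the filter removes genes that are dim at any stage.

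Cumulus cells of B6CBAF1/J mice were collected at 3 stages, with 5 pools of several animals and 1 array a pool at each stage. At NC1, the mice were 3 weeks old and juvenile, the complexes were unexpanded, and the prophase I oocytes were meiotically but not developmentally competent. At C1, the mice were 8 weeks old and adult, and the unexpanded complexes held prophase I oocytes that were developmentally competent. At C2, adults of 8 weeks were superovulated with equine and human chorionic gonadotropin, and expanded complexes with metaphase II oocytes were flushed from the oviduct. Oocytes were removed by pipetting at NC1 and C1 and after hyaluronidase at C2. Stage therefore cannot be told apart from age between NC1 and C1, nor, between C1 and C2, from the hormones, the enzyme and the place the complexes came from. All values below are log2 intensities after subtraction of the same array's median over valid probes. A level is thus relative to the other transcripts of its array, and fewer cells in cycle cannot be told apart from less transcript in each cell.

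In a dividing cell, D cyclins with Cdk4 or Cdk6 open the way from G1 into S phase by releasing E2F factors from the retinoblastoma proteins. E2F factors then raise the genes that license and copy DNA, and a later programme driven by B-Myb and Foxm1 raises the genes of mitosis. CDK inhibitors oppose the cycle, those of the Ink4 family at Cdk4 and Cdk6 and those of the Cip/Kip family at cyclin E and A complexes. Granulosa and cumulus cells of a growing follicle divide under follicle-stimulating hormone, with Ccnd2 as a known requirement, and they leave the cycle after the ovulatory surge.

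The arrays carried the cells named on the labels. All 10 granulosa and cumulus markers, among them Amh, Foxl2 and Fshr, were above background in at least 4 arrays of each stage. Between 18368 and 24496 gene probes an array were well above background, the most in C1 replicate 4, and no gene spot was saturated. C1 replicate 4 also carried markers of cumulus expansion, with a summed log2 level of 3.12 against -2.60 to -1.35 on the other C1 arrays and 4.22 to 5.04 at C2. The 12 oocyte markers summed to 3.66 to 5.66 at NC1 and C1 and to 3.75 to 4.10 in C2 replicates 1, 2 and 3, against -0.48 and -0.31 in C2 replicates 4 and 5. On C2 replicates 1 to 3 the sum rests on Gdf9, H1foo and Oosp1, within or above their C1 ranges, while Zp1, Zp2, Zp3, Npm2 and Nlrp5 lay below every C1 value there. Theca and stroma markers summed to 3.19 to 5.64 at NC1 and C1 and to -1.08 to -0.49 at C2, and the oviduct markers were highest in C2 replicates 4 and 5, at 3.13 and 2.83. The oviduct sum rests on Ovgp1, the oviduct glycoprotein, at 3.06 and 2.73 on those arrays. Epcam and Tppp3 of the same list fell from C1 to C2 (log2 differences -1.05 and -1.01). Pax8 was above background on no C1 or C2 array, and Foxj1 on 1 C1 and 3 C2 arrays. Within C2, Foxj1 (-4.32 and -3.60) and Tppp3 (-2.235 and -1.713) were highest in replicates 4 and 5, and Epcam was not. Counts by role are given with and without these arrays.

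Before ovulation, few cell cycle genes differed between juvenile and adult cumulus cells, and the share was near that of all valid probes. Of the 43 members, 1 passed the limma test for C1 against NC1 at an adjusted p of 0.01, and it rose. Of the 17324 valid probes, 2.52% passed, 1.75% higher and 0.768% lower at C1. The member that rose was Cdkn1a, which encodes the CDK inhibitor p21. Its levels were -2.84, -2.83, -2.39, -2.51 and -2.80 at NC1, -1.46, -1.88, -1.28, -0.94 and -1.43 at C1 and 1.90, 1.97, 2.05, 2.17 and 2.18 at C2. Every C1 array lay above every NC1 array, and every C2 array lay above every C1 array. It was the 1 member whose C1 and NC1 levels did not overlap, as in 5.97% of all valid probes (3.41% higher and 2.56% lower at C1). Cdkn1a rose 2.42-fold from NC1 to C1 (log2 difference 1.28 ± 0.15, standard error of the fit; limma adjusted p = 4.6e-05), and this call held under all 30 alternatives. Beside it, 3 of the 4 red blood cell markers tested fell from NC1 to C1, the summed levels going from 6.07 to 8.61 at NC1 down to 3.31 to 5.37 at C1, and their part in the result was not tested. The other 42 members had log2 differences between -0.33 (Ube2c) and 0.31 (Cdkn1b), and none passed (3 of the 43 members had an unadjusted p below 0.05). The median of the 43 was -0.09, against -0.03 over all valid probes, and with each of the 15 arrays left out in turn it stayed between -0.17 and -0.05. In the mitosis group 20 of 21 differences were below 0, as were 34 of the 43 in all, with a mitosis median of -0.19. With scaling on spike-in probes, which moved the median of all probes to 0.13, the mitosis median was -0.03. The p-values here and below measure the spread between pools.

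**Figure D1:**
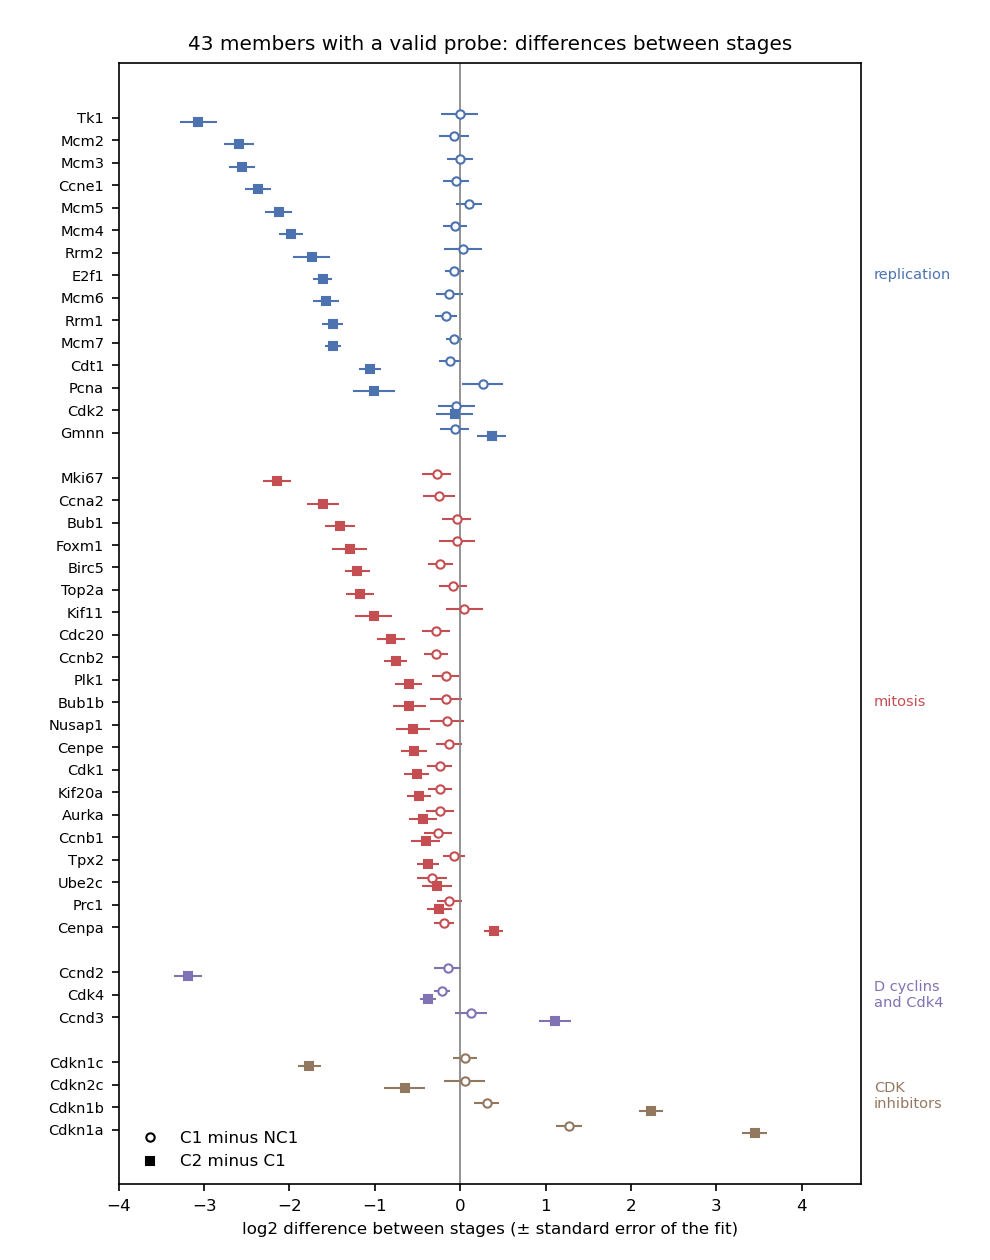
Differences between stages for the 43 members with a valid probe, in log2 units with the standard error of the fit (5 arrays a stage), grouped by role. Open circles give C1 minus NC1 and lie within 0.33 of 0 except for Cdkn1a at 1.28, whereas filled squares give C2 minus C1 and run from -3.19 for Ccnd2 to 3.45 for Cdkn1a.

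From adult unexpanded to ovulated cumulus cells, more cell cycle genes fell than rose. In limma, 29 of the 43 members fell and 4 rose at C2 against C1, while 22.2% of all valid probes fell and 25.4% rose (47.6% in either direction). The median log2 difference of the members was -1.01, against 0.02 over all valid probes. Falls of at least 2-fold were called for 22 members, and for 1821 of the 17324 valid probes. Fewer passed under other settings, 20 lower and 5 higher with arrays scaled on all gene probes (40.9% of all valid probes), 22 and 2 with spike-in scaling (22%), and 20 and 4 without C2 replicates 1 to 3 (35.4%). The levels of C2 and C1 did not overlap for 29 members, 26 of them lower and 3 higher at C2, against 19.8% and 24.1% of all valid probes (43.9% in either direction). The fall was deepest in the replication genes, smaller and less even in the mitosis genes, and split among the D cyclins and the CDK inhibitors. Both comparisons use the C1 arrays, so they are not independent of each other.

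Markers of other cells moved between C1 and C2 as well. All 5 theca and stroma markers fell, with a median log2 difference of -4.79, and 8 of the 10 granulosa and cumulus markers fell, with a median of -2.63. Of the 12 oocyte markers, 10 were above background in at least 4 arrays at C1 and 4 at C2. Of the leukocyte markers 1 of 2 tested rose, and Tnfaip6, the 1 marker of cumulus expansion tested, rose by 6.43 on the log2 scale. The part of these shifts in the results below was not tested. Without C1 replicate 4, the array with expansion markers, 32 members passed between C2 and C1, 29 of them lower (45.6% of all valid probes passed).

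**Figure D2:**
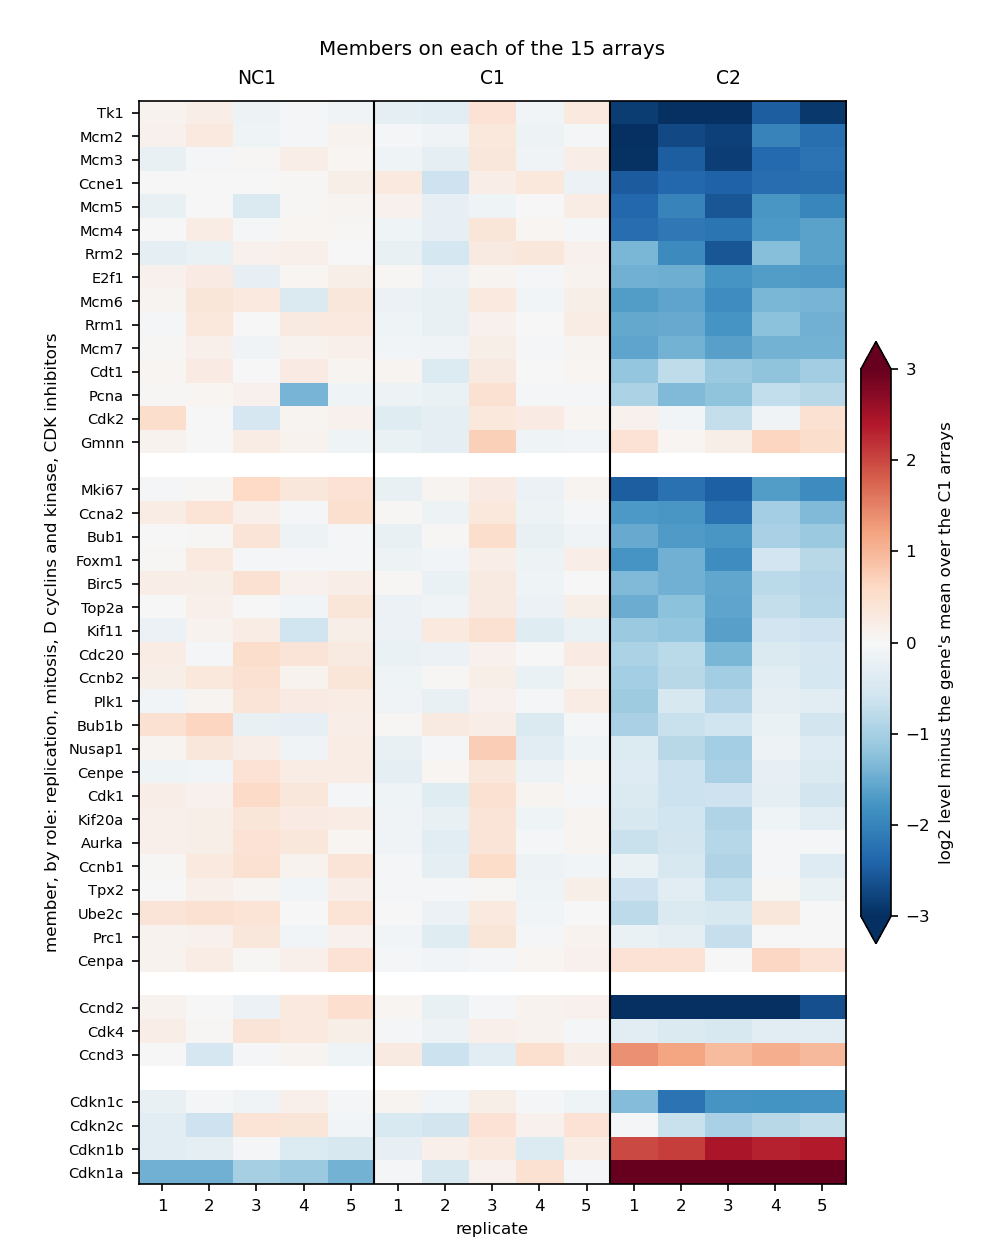
Level of each member on each of the 15 arrays (columns, by stage and replicate), as the log2 level minus the gene's mean over the C1 arrays, with blue below and red above that mean and the colour scale ending at 3 in either direction. Replication genes at the top are uniformly blue at C2 except for Cdk2 and Gmnn, mitosis genes are paler and palest in C2 replicates 4 and 5, and Cdkn1a and Cdkn1b are red at C2.

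Of the 15 replication members tested, 13 fell from C1 to C2, none rose and 2 did not pass. Their median log2 difference was -1.61, and all 13 fell by at least 2-fold, as did 1821 of the 17324 valid probes. Thymidine kinase, Tk1, which salvages thymidine for DNA synthesis, fell furthest. Tk1 read 1.36, 1.44, 1.104, 1.21 and 1.15 at NC1, 0.95, 0.91, 1.68, 1.16 and 1.53 at C1 and -1.59, -2.07, -2.57, -1.22 and -1.65 at C2. The highest C2 array lay more than 2 log2 units below the lowest C1 array, and the difference was -3.07 ± 0.21 (8.38-fold lower, limma adjusted p = 4.07e-09). Mcm2 and Mcm3 belong to the ring-shaped helicase that unwinds DNA. Mcm2 read 0.99, 1.15, 0.73, 0.82 and 0.97 at NC1, 0.82, 0.75, 1.18, 0.71 and 0.82 at C1 and -2.30, -1.86, -1.94, -1.16 and -1.41 at C2. Mcm3 read 2.86, 3.04, 3.11, 3.29 and 3.14 at NC1, 2.94, 2.79, 3.42, 2.99 and 3.29 at C1 and 0.12, 0.60, 0.27, 0.76 and 0.88 at C2. In both genes all 5 C2 arrays were below all others, and C2 replicates 4 and 5 were the least low. Mcm2 fell 6.01-fold and Mcm3 5.89-fold (limma adjusted p = 3.43e-09 and 9.24e-10). A second Mcm3 probe gave a log2 difference of -2.52, against -2.56 for the brighter one.

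The other helicase subunits fell as well, by log2 differences of -2.13 for Mcm5, -1.99 for Mcm4, -1.57 for Mcm6 and -1.49 for Mcm7. Ccne1, the cyclin E1 that activates Cdk2 at the start of S phase, fell by 2.37 on the log2 scale. The ribonucleotide reductase subunits, which make the deoxynucleotides, fell by 1.74 (Rrm2) and 1.49 (Rrm1). E2f1, a transcription factor of the S-phase programme, fell by 1.61, and the licensing factor Cdt1 fell by 1.06. Each of these calls was kept under all 30 alternatives, as were those of Tk1, Mcm2 and Mcm3.

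Pcna, the sliding clamp of the DNA polymerases, fell least among the 13. Pcna read 3.67, 3.70, 3.78, 2.24 and 3.51 at NC1, 3.49, 3.44, 4.10, 3.58 and 3.60 at C1 and 2.70, 2.31, 2.43, 2.90 and 2.82 at C2. The C2 values lay below every C1 value, while NC1 replicate 4 stood apart from its stage and lay below all C2 arrays. The difference between C2 and C1 was -1.01 ± 0.24 (2.02-fold lower, limma adjusted p = 0.00187). It did not pass when arrays were scaled on all gene probes (adjusted p = 0.0195, log2 difference -0.70) or without C2 replicates 1 to 3 (0.0705).

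Cdk2 and Gmnn did not follow the other replication genes. Cdk2 is the kinase partner of cyclins E and A, and Gmnn (geminin) blocks Cdt1 and so prevents a second round of licensing. Cdk2 read -1.07, -1.60, -2.11, -1.53 and -1.48 at NC1, -1.96, -1.87, -1.29, -1.36 and -1.55 at C1 and -1.48, -1.69, -2.33, -1.72 and -1.14 at C2. Gmnn read 0.31, 0.21, 0.43, 0.33 and 0.09 at NC1, 0.02, -0.09, 0.92, 0.09 and 0.12 at C1 and 0.64, 0.27, 0.39, 0.86 and 0.74 at C2. For both genes the 3 stages overlapped. Cdk2 differed by -0.07 ± 0.22 between C2 and C1 (limma adjusted p = 0.817), and Gmnn by 0.37 ± 0.17 (adjusted p = 0.0743). C1 replicate 3 was the highest C1 array for Gmnn at 0.92, and without it the Gmnn difference was 0.55 and passed (adjusted p = 0.00148).

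The licensing factor Cdc6, which loads the helicase with Cdt1, had no valid probe because it was not well above background on any C2 array. It was above background on all NC1 and C1 arrays, with levels of -2.14, -2.61, -1.82, -2.08 and -2.40 at C1. Set against the lowest signal above background, Cdc6 was at least 5.995-fold higher at C1 and at least 5.18-fold higher at NC1 than at C2. For the bound, each C2 array was given the dimmest signal that any detected probe had there, or the signal of Cdc6 where that was higher, and these values were averaged. A second Cdc6 probe was also above background on none of the C2 arrays. Tyms, thymidylate synthase, was above background on 5 arrays at NC1, 3 at C1 and 2 at C2. Cdc45, a further part of the helicase, had no probe in the table, and its probe on the arrays was above background on 5, 5 and 3 arrays. The probe of Ccne2, cyclin E2, was above background on none.

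Promoter sequence was set beside these values, since E2F factors act through short motifs near the start of transcription. The windows came from the RefSeq promoter table (GRCm38.p6, 250 bases before to 50 after a start), which held 16 of the 19 replication members in 17 promoters. The E2F motif was searched as TTTCCCGC, TTTGGCGC, TTTCGCGC or TTTGCCGC on both strands. It occurred in 7 of the 17 replication promoters (41.2%), against 2.26% of all 32851 promoters and 1 of 18 mitosis promoters (5.56%). Below, 3 replication promoters are printed 5′ to 3′ on the strand of the gene from 200 bases before to 20 after the start, because they carry the motif and belong to genes that fell. Capitals mark E2F matches on either strand and CCAAT boxes (CCAAT or ATTGG). The Cdc6 window is chr11:98907951-98908170, plus strand, the Mcm5 window chr8:75109309-75109528, plus strand, and the Mcm6 window chr1:128359686-128359905, minus strand.
Cdc6: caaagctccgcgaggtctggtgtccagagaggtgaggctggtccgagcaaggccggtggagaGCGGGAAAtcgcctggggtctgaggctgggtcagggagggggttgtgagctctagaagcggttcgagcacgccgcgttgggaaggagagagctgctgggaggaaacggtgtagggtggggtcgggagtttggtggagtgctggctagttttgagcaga
Mcm5: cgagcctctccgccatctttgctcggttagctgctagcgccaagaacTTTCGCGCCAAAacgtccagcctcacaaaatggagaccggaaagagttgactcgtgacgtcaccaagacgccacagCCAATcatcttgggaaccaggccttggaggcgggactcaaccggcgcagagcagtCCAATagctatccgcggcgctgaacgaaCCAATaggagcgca
Mcm6: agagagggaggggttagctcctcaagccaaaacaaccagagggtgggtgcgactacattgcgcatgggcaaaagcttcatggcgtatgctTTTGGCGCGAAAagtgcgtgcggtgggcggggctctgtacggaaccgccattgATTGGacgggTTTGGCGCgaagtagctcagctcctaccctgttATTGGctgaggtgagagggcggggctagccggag
Mcm5 and Mcm6 carry 2 E2F matches that overlap each other on opposite strands, and Mcm6 has a further one nearer the start. Among replication members with a valid probe and a promoter in the table, 5 of the 6 with an E2F match fell and Cdk2 did not pass, and all 7 without a match fell. The deepest fall, that of Tk1, belonged to a promoter with no match in the window. A match is a description of letters and no evidence of binding, and a missing match says only that these letters are not in this window.

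**Figure D3:**
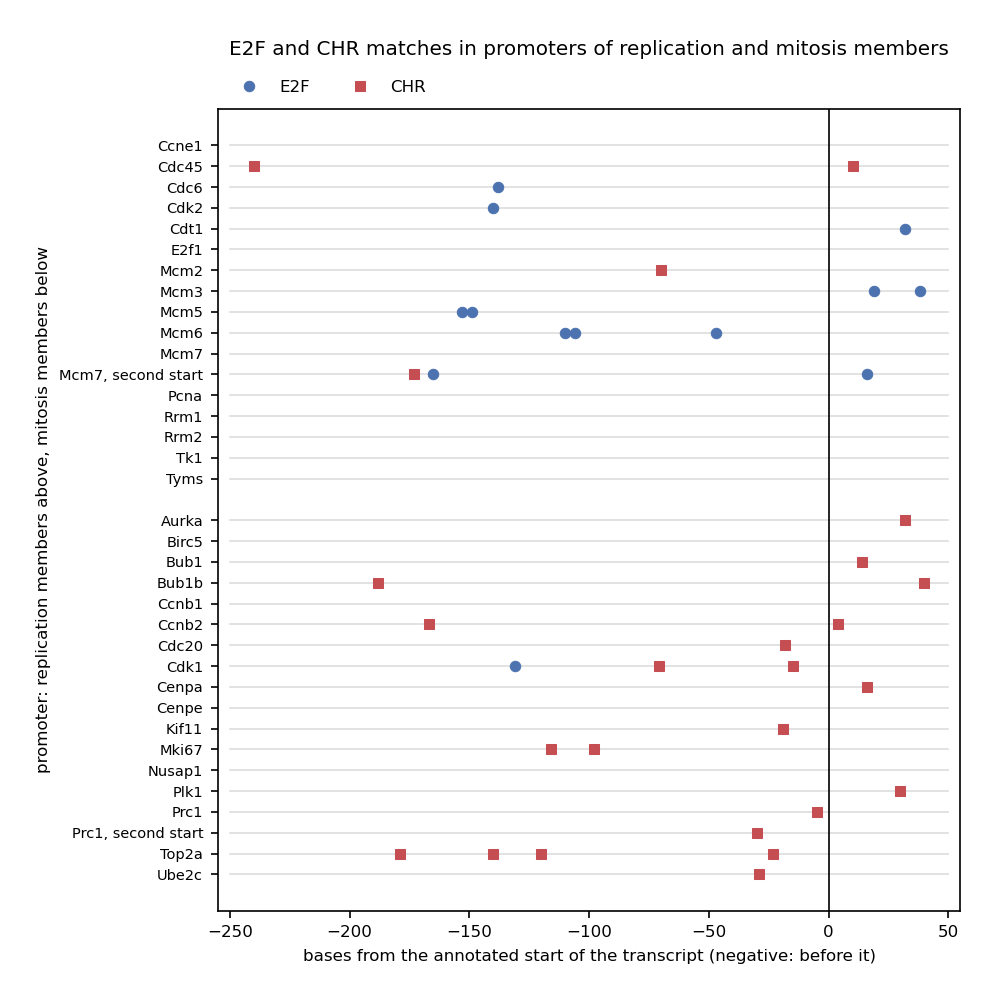
Position of E2F matches (circles) and CHR matches (squares) in the RefSeq promoter windows of replication members (above) and mitosis members (below), in bases from the annotated start. Circles lie in 7 of the 17 replication promoters and in Cdk1 among the mitosis promoters, while squares lie in 14 of the 18 mitosis promoters and in 3 replication promoters.

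The mitosis genes fell less and less evenly. Of the 21 tested, 13 fell from C1 to C2, Cenpa rose and 7 did not pass, and the median log2 difference was -0.60. The count depended on the scaling. With arrays scaled on all gene probes, which moved the median of all valid probes from 0.02 to 0.33, 6 fell and Cenpa rose, a smaller share than the 40.9% of all valid probes that passed. With spike-in scaling, which moved that median to -0.09, 7 fell and 22% of all probes passed. Among the replication genes, 12 and 13 fell under these scalings. With each array left out in turn, 9 to 15 mitosis genes and 13 replication genes fell. Mki67, the chromosome coat protein used as a mark of dividing cells, had the deepest fall. Mki67 read 4.18, 4.24, 4.81, 4.55 and 4.64 at NC1, 3.99, 4.28, 4.46, 4.03 and 4.28 at C1 and 1.73, 1.97, 1.76, 2.53 and 2.32 at C2. All C2 arrays were below all others by more than 1 log2 unit, and the difference was -2.15 ± 0.17 (4.43-fold lower, limma adjusted p = 1.59e-08). A second Mki67 probe gave -2.23. Ccna2 encodes cyclin A2, which serves S phase and entry into mitosis, and Bub1 is a kinase of the spindle checkpoint. Ccna2 read 1.92, 2.11, 1.84, 1.67 and 2.19 at NC1, 1.73, 1.54, 2.02, 1.55 and 1.64 at C1 and -0.03, -0.04, -0.54, 0.68 and 0.36 at C2. Bub1 read 0.15, 0.21, 0.55, 0.02 and 0.13 at NC1, -0.06, 0.21, 0.69, -0.06 and 0.07 at C1 and -1.35, -1.53, -1.59, -0.80 and -0.95 at C2. Neither gene overlapped between C2 and C1, and C2 replicates 4 and 5 were again the highest of the stage. Ccna2 fell 3.05-fold and Bub1 2.66-fold (limma adjusted p = 1.37e-06 and 3.17e-06).

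Foxm1, a transcription factor of the mitotic programme, fell by 1.29 on the log2 scale, from a range of -0.56 to -0.19 at C1 to -2.26 to -0.97 at C2. Birc5 (survivin, of the chromosomal passenger complex) fell by 1.21, Top2a, the topoisomerase that untangles chromosomes, by 1.17, and the spindle motor Kif11 by 1.01. Cdc20, which activates the anaphase-promoting complex, fell by 0.81 and Ccnb2, cyclin B2, by 0.76. The calls of Mki67, Ccna2, Bub1, Foxm1, Birc5 and Top2a were kept under all 30 alternatives. Those of Kif11, Cdc20 and Ccnb2 were lost with arrays scaled on all gene probes and without C2 replicates 1 to 3. Spike-in scaling also lost the calls of Cdc20 and Ccnb2. Kif11 was dim at C2, with a mean of -3.91 and 4 arrays above background.

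The kinase at the centre of mitosis and its cyclin differed little between C1 and C2. Cdk1 drives entry into mitosis with cyclin B1, encoded by Ccnb1. Cdk1 read -0.36, -0.45, 0.00, -0.23 and -0.62 at NC1, -0.70, -0.93, -0.12, -0.49 and -0.62 at C1 and -1.002, -1.22, -1.20, -0.86 and -1.12 at C2. Ccnb1 read 2.32, 2.58, 2.74, 2.38 and 2.66 at NC1, 2.24, 1.99, 2.83, 2.12 and 2.20 at C1 and 2.08, 1.80, 1.38, 2.22 and 1.88 at C2. The highest C2 value of Cdk1, -0.86, lay above the lowest C1 value, -0.93, and the ranges of Ccnb1 overlapped too. Cdk1 differed by -0.51 ± 0.15 (1.42-fold lower, limma adjusted p = 0.00667), and Ccnb1 by -0.40 ± 0.17, which did not pass (adjusted p = 0.0509). Both other valid Ccnb1 probes gave smaller differences, -0.20 and -0.20. Plk1, a kinase of mitotic entry, fell by 0.60 on the log2 scale (limma adjusted p = 0.00298), Cenpe, a kinetochore motor, by 0.54 (0.00654) and Kif20a, a motor of cytokinesis, by 0.49 (0.00693). The Cdk1 call was lost without C1 replicate 3, 4 or 5 or C2 replicate 2, 3 or 5 (adjusted p up to 0.0188), and that of Plk1 without C2 replicate 3 (0.0101). The call of Cenpe was lost without C1 replicate 2, 3 or 5 or C2 replicate 2 or 3 (up to 0.0206), and that of Kif20a without C1 replicate 3 or 5 or C2 replicate 1, 2 or 3 (up to 0.0216). The calls of Cdk1, Plk1, Cenpe and Kif20a were also lost with scaling on all gene probes or on spike-in probes. Leaving out C2 replicates 1 to 3 together lost them as well.

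Cenpa, the histone variant of centromeres, was the 1 mitosis member that rose. Cenpa read 0.71, 0.81, 0.64, 0.75 and 1.04 at NC1, 0.56, 0.52, 0.54, 0.67 and 0.73 at C1 and 1.03, 1.05, 0.63, 1.23 and 1.05 at C2. The C2 arrays lay above all C1 arrays except for replicate 3, which lay within them. The difference was 0.39 ± 0.11 (limma adjusted p = 0.00729). This call was lost without C1 replicate 1, 2, 3 or 4 or C2 replicate 1, 2, 4 or 5 (adjusted p between 0.0107 and 0.0234). It was also lost with the slide as a block (0.37, adjusted p = 0.0209), and within slides the difference was 0.51, -0.10, 0.47 and 0.49.

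The 7 mitosis members that did not pass had log2 differences from -0.60 (Bub1b, a checkpoint kinase) to -0.24. Nusap1 and Tpx2, which build the spindle, had -0.55 and -0.38, and Aurka, a spindle pole kinase, had -0.44. Prc1 bundles the spindle midzone, and Ube2c feeds ubiquitin to the anaphase-promoting complex. Prc1 read 2.32, 2.33, 2.55, 2.13 and 2.33 at NC1, 2.13, 1.86, 2.58, 2.16 and 2.31 at C1 and 2.00, 1.91, 1.51, 2.20 and 2.21 at C2. Ube2c read 1.45, 1.52, 1.47, 1.06 and 1.48 at NC1, 1.07, 0.88, 1.35, 0.98 and 1.06 at C1 and 0.28, 0.64, 0.60, 1.41 and 1.07 at C2. C2 replicates 4 and 5 were within or just above the C1 range in both genes, and the other C2 arrays were below it for Ube2c and low in it or below it for Prc1. Prc1 differed by -0.24 ± 0.15 (limma adjusted p = 0.176) and Ube2c by -0.27 ± 0.18 (0.199). Aurkb, the kinase of the passenger complex, had no probe in the table, and its probe on the arrays was above background on none.

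The C2 arrays themselves differed in mitosis genes. Taken as the median difference of the 21 members from their C1 means, replicates 1 to 5 stood at -0.96, -0.67, -0.98, -0.26 and -0.50. The 15 replication members stood at -1.57, -1.57, -1.86, -1.41 and -1.60 on the same arrays. Both C2 replicates 4 and 5 were above replicates 1, 2 and 3 for 18 of the 21 mitosis members (85.7%) and 10 of the 15 replication members (66.7%), against 17.6% of all valid probes, and in no member of these roles were both below. On these arrays Gdf9, H1foo and Oosp1 were low and Ovgp1 was high. Tppp3 and Foxj1 were also higher there than on C2 replicates 1 to 3, and Epcam lay within the range of those replicates. The part of these shifts in the result was not tested. Without C2 replicates 1 to 3, 6 of the 21 mitosis members and 12 of the 15 replication members fell, with median log2 differences of -0.37 and -1.44, where 35.4% of all valid probes passed in either direction. Cenpa rose there too, so the 7 mitosis calls of 21 are no larger a share than that of all probes. Without C2 replicates 4 and 5, 17 and 13 fell, with medians of -0.75 and -1.70 (41.6% of all valid probes). All 5 C2 arrays had both medians below every C1 and NC1 array.

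**Figure D4:**
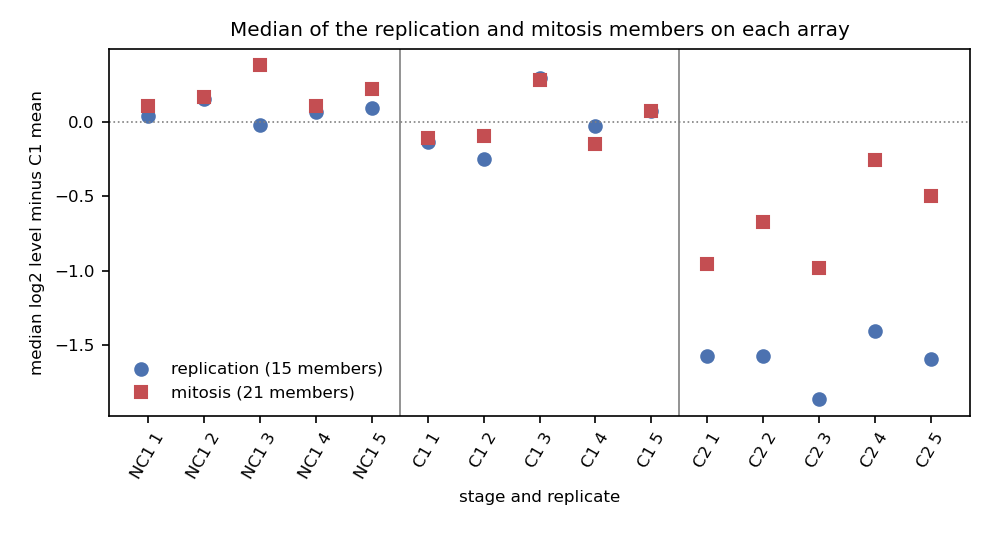
Median over the 15 replication members (circles) and the 21 mitosis members (squares) of the log2 level minus the C1 mean, for each array by stage and replicate. At C2 the replication medians lie between -1.86 and -1.41, and the mitosis medians between -0.98 and -0.26, highest in replicates 4 and 5.

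Mitosis promoters were described in the same way. The CHR (cell cycle genes homology region) is the element through which the B-Myb and Foxm1 complex binds late cell cycle genes, often close to a CCAAT box. Searched as TTTGAA or TTCGAA on both strands, it occurred in 14 of the 18 promoters that the table held for 17 of the 22 mitosis members (77.8%), in 3 of 17 replication promoters (17.6%) and in 19.2% of all promoters. A CCAAT box (CCAAT on either strand) occurred in 88.9% of the mitosis promoters and in 37.4% of all promoters. Both together occurred in 77.8% of the mitosis promoters and in 7.52% of all. Below, 3 mitosis promoters are printed over the same 220 bases because they carry a CHR and stand for a weak, a middle and a deep fall. Capitals mark CHR matches, CCAAT boxes and, in Cdk1, an E2F match. The windows are chr10:69352893-69353112, minus strand for Cdk1, chr4:118437324-118437543, minus strand for Cdc20, and chr7:135716360-135716579, minus strand for Mki67.
Cdk1: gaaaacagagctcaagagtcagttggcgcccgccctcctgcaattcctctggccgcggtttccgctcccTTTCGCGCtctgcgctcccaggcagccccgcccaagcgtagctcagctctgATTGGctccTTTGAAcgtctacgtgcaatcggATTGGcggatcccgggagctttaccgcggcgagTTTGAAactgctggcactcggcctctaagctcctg
Cdc20: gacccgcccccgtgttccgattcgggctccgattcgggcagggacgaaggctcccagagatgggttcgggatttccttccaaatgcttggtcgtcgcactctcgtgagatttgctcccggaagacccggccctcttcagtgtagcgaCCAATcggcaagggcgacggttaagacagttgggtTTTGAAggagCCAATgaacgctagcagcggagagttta
Mki67: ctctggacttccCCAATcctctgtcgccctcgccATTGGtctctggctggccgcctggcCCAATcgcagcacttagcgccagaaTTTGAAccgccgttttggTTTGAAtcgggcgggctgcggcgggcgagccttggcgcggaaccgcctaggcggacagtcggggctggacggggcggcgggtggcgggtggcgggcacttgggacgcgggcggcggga
Cdk1 and Mki67 each hold 2 CHR matches and Cdc20 holds 1. Of the 13 mitosis members with a CHR in the window, 8 fell, Cenpa rose and 4 did not pass, with a median log2 difference of -0.60. Of the 4 without one, Birc5 and Cenpe fell and Ccnb1 and Nusap1 did not pass, with a median of -0.55. In all member promoters there were 100 matches, and 1 pair of different motifs overlapped, an E2F match and a CCAAT box in Mcm7.

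The D cyclins went apart at ovulation. Ccnd2 encodes cyclin D2, the D cyclin that granulosa cells need to proliferate. Ccnd2 read 3.69, 3.60, 3.42, 3.87 and 4.09 at NC1, 3.65, 3.36, 3.53, 3.69 and 3.71 at C1 and 0.13, 0.19, 0.18, 0.54 and 0.95 at C2. It fell further than any other valid member, by 3.19 ± 0.16 on the log2 scale (9.12-fold lower, limma adjusted p = 1.1e-10), with no array of C2 within 2 log2 units of C1. Ccnd3, cyclin D3, went the other way. Ccnd3 read 1.13, 0.64, 1.1, 1.23 and 1.03 at NC1, 1.43, 0.50, 0.83, 1.63 and 1.36 at C1 and 2.52, 2.33, 2.10, 2.24 and 2.13 at C2. All C2 arrays were above all C1 and NC1 arrays, although the C1 arrays were spread from 0.50 to 1.63. Ccnd3 rose by 1.11 ± 0.19 (2.16-fold, limma adjusted p = 7.6e-05), and a second probe gave 1.08. The call was lost with scaling on spike-in probes (1.00, adjusted p = 0.0221).

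Cdk4, the kinase that both cyclins bind, shifted slightly. Cdk4 read 4.92, 4.78, 5.11, 5.03 and 4.91 at NC1, 4.67, 4.59, 4.89, 4.83 and 4.68 at C1 and 4.41, 4.31, 4.24, 4.41 and 4.40 at C2. C2 was narrowly below C1 on every array, by -0.38 ± 0.09 (1.30-fold lower, limma adjusted p = 0.00225). The call was lost when arrays were scaled on all gene probes, where the difference was -0.07 (adjusted p = 0.772). Of 2 further Cdk4 probes, 1 gave -0.38 and passed and 1 gave -0.29 and did not (adjusted p = 0.0615). Ccnd1, cyclin D1, and Cdk6, the second kinase, had no probe in the table. The Ccnd1 probe on the arrays was above background on 1 array at NC1, 3 at C1 and 0 at C2, and the Cdk6 probe on 0, 1 and 0.

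CDK inhibitors moved in both directions. Cdkn1a, whose array values are given above, rose a further 10.9-fold from C1 to C2 (log2 difference 3.45 ± 0.15, limma adjusted p = 1.97e-11), the largest rise among the members. Cdkn1b encodes p27, an inhibitor of cyclin E and A complexes that also stabilizes D cyclin complexes. Cdkn1b read 0.78, 0.86, 1.09, 0.73 and 0.66 at NC1, 0.89, 1.28, 1.43, 0.72 and 1.35 at C1 and 3.12, 3.21, 3.58, 3.44 and 3.50 at C2. C1 and NC1 overlapped and every C2 array lay above them by more than 1 log2 unit. Cdkn1b rose by 2.24 ± 0.15 (4.71-fold, limma adjusted p = 2.03e-09). Its difference between C1 and NC1, 0.31, did not pass (adjusted p = 0.293).

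Cdkn1c encodes p57, the third Cip/Kip inhibitor. Cdkn1c read -2.39, -2.21, -2.26, -2.02 and -2.24 at NC1, -2.08, -2.25, -1.99, -2.21 and -2.31 at C1 and -3.46, -4.39, -3.93, -3.96 and -3.93 at C2. It fell by 1.77 ± 0.14 (3.40-fold lower, limma adjusted p = 1.68e-08), and C2 did not overlap with the other stages. Cdkn2c encodes p18, an Ink4 inhibitor of Cdk4 and Cdk6. Cdkn2c read -1.48, -1.80, -0.76, -0.80 and -1.25 at NC1, -1.62, -1.71, -0.74, -1.03 and -0.73 at C1 and -1.23, -1.83, -2.15, -1.99 and -1.89 at C2. C2 replicate 1 lay among the C1 arrays and the stages overlapped. The difference of -0.65 ± 0.24 did not pass (limma adjusted p = 0.0298), although it did with the slide as a block (-0.74, adjusted p = 0.00634). The promoter table held 9 promoters for 3 of the 5 D cyclin and kinase members and 3 of the 4 inhibitors. None of these promoters held an E2F or a CHR match. Ccnd1, Ccnd2 and Cdkn1c had no promoter there and were not searched.

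**Figure D5:**
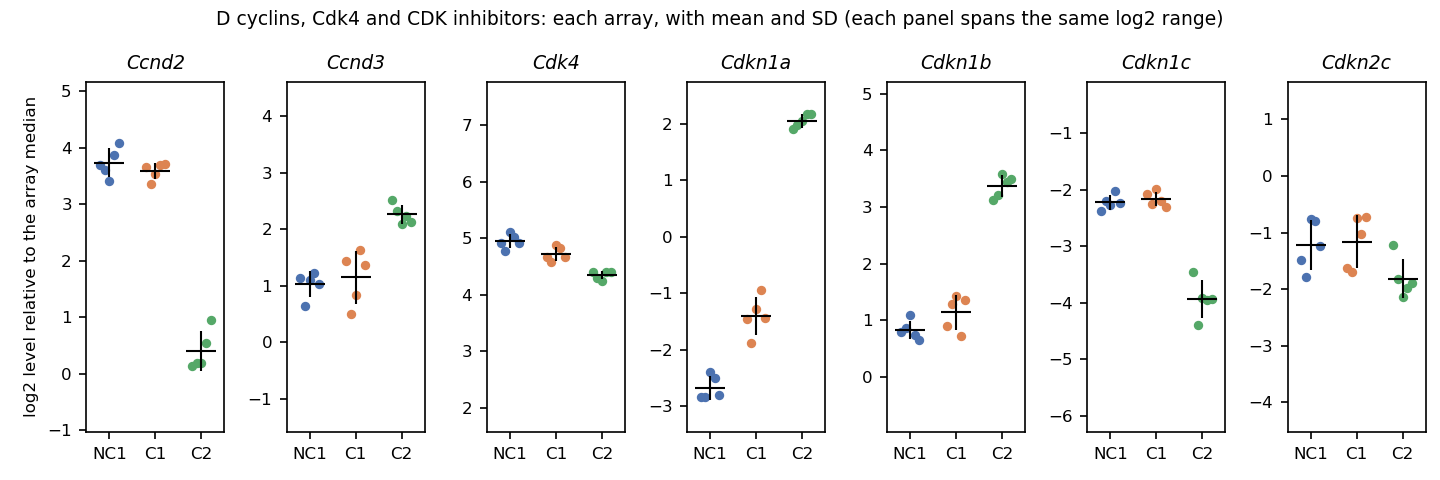
Log2 level relative to the array median for the D cyclins, Cdk4 and the 4 CDK inhibitors, with 1 point an array (5 a stage), the mean as a horizontal bar and the SD as a vertical line, and every panel spanning the same log2 range. From C1 to C2, Ccnd2 and Cdkn1c step down and Ccnd3, Cdkn1a and Cdkn1b step up, and Cdkn1a also steps up from NC1 to C1.

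In the direct comparison of ovulated adult with juvenile cells, C2 against NC1, 34 of the 43 members fell and 3 rose in limma (24.9% and 26.5% of all valid probes, 51.5% in either direction). Levels of C2 and NC1 did not overlap for 33 members, 30 of them lower, against 48.9% of all valid probes (23.3% lower and 25.6% higher). The 3 that rose were Cdkn1a (log2 difference 4.73), Cdkn1b (2.55) and Ccnd3 (1.24). In the mitosis group 19 of 21 fell, with a median of -0.77, and Cenpa (0.20) and Prc1 (-0.37) did not pass. This count was 9 with arrays scaled on all gene probes (41.2% of all valid probes passed) and 9 with spike-in scaling (26.6%). Without C2 replicates 1 to 3 it was 8, with a median of -0.53 (39.5%), and without C2 replicates 4 and 5 it was 19, with a median of -0.93 (45.4%). In the replication group 12 of 15 fell, with a median of -1.70, and Pcna (-0.75, adjusted p = 0.0134), Cdk2 (-0.11) and Gmnn (0.31) did not pass. The replication count was 12 under each of these 4 alternatives. Over the 3 stages together, 35 members passed the moderated F-test, as did 51.5% of all valid probes.

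The slides held arrays of all 3 stages, so the same differences were taken within each of the 4 slides. Between C2 and C1, 33 of the 43 members were lower on all 4 slides and 3 were higher, against 27.5% and 32.2% of all valid probes. The median of the members was -0.67, -1.42, -0.79 and -1.40 on slides 1 to 4. The smaller values came from the slides that hold C2 replicates 4 and 5. Between C1 and NC1, 2 members were lower and 1 higher on all 4 slides, against 10.4% and 9.49%, and the medians were -0.19, -0.09, -0.21 and 0.14. With the slide as a block, 33 members passed between C2 and C1, with Cdkn2c in and Cenpa out (44.8% of all valid probes). Between C1 and NC1, 1 member passed with that block (1.95%).

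A wider list of 143 cell cycle genes, none of them a member, was described in the same fit. For C1 against NC1, 0 of the 130 with a valid probe passed in limma and 14 had an unadjusted p below 0.05, while 2.52% of all probes passed, and the median log2 difference was -0.11. For C2 against C1, 83 fell and 12 rose (22.2% and 25.4% of all probes). Among 41 other replication genes, 36 fell and none rose, with a median of -1.12. The deepest falls were those of Uhrf1, which carries DNA methylation through replication (-2.46), Pole, the leading-strand polymerase (-2.46), and Prim1, a primase subunit (-2.26). The smallest falls that passed were those of the clamp loader subunits Rfc2 (-0.45) and Rfc3 (-0.39) and of Gins3 (-0.42), a helicase cofactor.

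Among 53 other mitosis genes, 37 fell and 2 rose, with a median of -0.74. Nuf2, a kinetochore subunit, fell by 2.34 on the log2 scale, Fbxo5, an inhibitor of the anaphase-promoting complex, by 1.93, and Cdca2, a phosphatase partner on chromosomes, by 1.89. Cks2, a small subunit that binds CDKs, rose by 1.28 and the kinetochore protein Zwint by 0.53, and Ncaph, a condensin subunit, had the smallest fall at -0.52. As in the members, C2 replicates 4 and 5 were above the other C2 arrays for most of these genes, in 41 of 53 (77.4%). With arrays scaled on all gene probes, 21 of the 53 mitosis genes fell and 3 rose, and 22 of the 41 replication genes fell (40.9% of all valid probes passed). Without C2 replicates 1 to 3, 19 mitosis genes fell and 1 rose, and 27 replication genes fell (35.4%). No replication gene rose in either setting. In both settings the share of mitosis genes that passed was close to that of all valid probes.

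Regulators of G1 and of cell cycle exit were split, with 10 rises and 10 falls among 36 and a median of 0.11. This was near the split of all valid probes, of which 25.4% rose and 22.2% fell, with a median of 0.02. In either direction 55.6% of the regulators passed, against 47.6% of all valid probes. With spike-in scaling 4 rose and 8 fell (22% of all valid probes passed). The genes named next are from the main fit. The falls were led by E2f7 (-2.44) and E2f8 (-2.06), repressive E2F factors that are themselves E2F targets, and by the pocket protein Rbl1 (-1.95). The rises were led by Gadd45a, a growth arrest gene (2.20), by Ccng2, a cyclin of resting cells (1.26), and by Cdkn2d, the Ink4 inhibitor p19 (1.26). A further 2 Ink4 inhibitors had no valid probe because they were dim in juvenile cells. Cdkn2b read -3.75, -4.30, -5.38, -5.73 and -5.15 at NC1, -1.96, -1.91, -2.83, -2.84 and -1.16 at C1 and 0.44, 0.48, 0.66, 0.42 and 0.61 at C2. This gene, named here after its values were seen, encodes p15, and it was above background on 1 NC1 array, on 5 C1 arrays and on all C2 arrays. The stages did not overlap. A looser fit, of probes present in at least 1 stage, gave Cdkn2b log2 differences of 2.72 (C1 minus NC1) and 2.66 (C2 minus C1). The gene was admitted there by its bright stages, so its p-values are no test of stage and are left out. The first difference is also inexact because 4 of the NC1 values were at background. Cdkn2a, which encodes p16 and p19Arf, was above background on 0, 4 and 4 arrays, and was at least 1.84-fold higher at C1 and at least 2.25-fold higher at C2 than at NC1.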

How the data were processed

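The data are 1-colour Agilent mouse arrays, 5 for each of 3 stages, 1 array a pool. The authors scanned Cy3-labelled RNA and extracted spots with Feature Extraction, version 10.5.1.1 per the submitters' processing notes and 10.7.1.1 per the file headers. The deposited scanner files hold spot intensities (background-subtracted processed signal) and flags, and the deposited table holds log2 values of 20855 probes, which the authors centred on the median of each array and filtered on detection. Scanner signals were used here, and the deposited log2 table was an alternative. Of 39429 gene probes, 17324 were kept, those detected well above background by 80% or more of a stage's arrays, for all 3 stages. Spots flagged as outliers (80 to 226 an array) were left out, spots of a probe were averaged, and each array's median over valid probes was subtracted on the log2 scale. This left 20 missing values on 19 probes.

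A linear model with stage as the only factor was fitted to the 15 arrays in limma 3.58.1 (R 4.3.3), with empirical Bayes variances, and p-values were adjusted by Benjamini-Hochberg over all valid probes, at 0.01. The fit was tested on simulated data. Promoters were searched in Python 3.11.15. The members, the wider list, the marker lists and the alternatives were chosen with earlier results of these data known. All members are named. Values on every array are given for the D cyclins and Cdk4, the CDK inhibitors, Mki67, Pcna, Cdk1, Ccnb1, any member called for C1 against NC1, and the 3 highest and 3 lowest differences of C2 against C1 among valid replication and mitosis members. Of the wider list, the 3 highest and 3 lowest called differences of each of its 3 groups are given. Groups came from the sample labels. Alternatives were other scalings, a normexp background (offset 50, on the median spot signal in place of the mean that had been planned), other filters and thresholds, the slide or replicate number as a block, and fits without given arrays. Precision is limited by how many arrays there are, no sequencing depth applies, and a relative scale cannot show a change shared by all transcripts.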

Additional observations from a re-analysis of the deposited data

Results flagged for a closer look

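In 135 groups of 5 arrays, the highest or lowest array was compared with its nearest neighbour. A group was a gene at a stage, or the median of the replication or of the mitosis members at a stage. In 9 groups that array stood apart by more than 0.71 of the range of the group. Chance flags about 1 in 20 groups. The gap was on the high side in C1 replicate 3 for 4 genes. These were Gmnn, at 0.92 against -0.09 to 0.12 on the other C1 arrays, Mcm2, at 1.18 against 0.71 to 0.82, Pcna, at 4.10 against 3.44 to 3.60, and Nusap1, at 0.61 against -0.46 to -0.19. C1 replicate 3 was the highest C1 array for 28 of the 43 members. Without it, Gmnn rose from C1 to C2, as given above.

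In juvenile cells, NC1 replicate 4 was low for Pcna, at 2.24 against 3.51 to 3.78, and for Ube2c, at 1.06 against 1.45 to 1.52. NC1 replicate 5 was high for Ccne1, at 1.14 against 0.94 to 1.00, NC1 replicate 3 for Birc5, at 3.82 against 3.50 to 3.57, and NC1 replicate 2 for Foxm1, at -0.10 against -0.47 to -0.37. None of the C2 groups had such an array.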

How the results depend on the processing

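Between C2 and C1, 22 of the 33 members that passed did so under all 30 alternatives, 11 lost the call in at least 1, and none reversed. The alternatives of at least 2-fold and of an adjusted p of 0.05 reuse the main fit. The first drops every smaller difference in advance, and the second can lose no call. Each call lost at 2-fold was also lost under another alternative. Leaving out each array in turn gave 1 member for C1 against NC1 every time, 29 to 34 for C2 against C1, 34 to 38 for C2 against NC1 and 31 to 38 over the 3 stages, and 0 and 86 to 96 genes of the wider list for C1 against NC1 and C2 against C1. In the wider list, 1 gene (Cdkn2b) passed for C1 against NC1 when probes present in at least 1 stage, or all gene probes, were tested, against 0. Cdkn2b entered the first of these fits only through the stages where it was bright, so that call is no test of stage. For C2 against C1, the count of the wider list was 60 with spike-in scaling, 54 at a difference of at least 2-fold and 63 without C2 replicates 1 to 3, against 95. Under the other alternatives the members gave 1, 24 to 38, 25 to 40 and 26 to 40 in the same order. With the replicate number as a block, 1, 31, 34 and 32 members and 0 and 91 genes of the wider list passed. For the members, the shares of all valid probes in that order were 2.33%, 46.5%, 50.6% and 49.9%. Same-numbered arrays correlated between -0.24 and 0.35. Between NC1 and C1, replicates 2, 4 and 5 correlated at 0.348, 0.341 and 0.345, each best with its own number, and replicates 1 and 3 at 0.075 and 0.056. Pairs with a C2 array ranged from -0.24 to 0.21. These values do not settle whether the number pairs the pools. Leaving out C2 replicates 4 and 5 was chosen after seeing the data. Scaling and the choice of C2 arrays moved the mitosis count, as given above. Cdc6, Tyms and the 5 members without a probe in the table could not be tested.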
